A study of Mus musculus with 12 samples.

Results

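The genes described here are 10 members of the integrated stress response, namely Atf4, Atf5, Ddit3, Asns, Psat1, Phgdh, Mthfd2, Trib3, Sesn2 and Gdf15. They were chosen by name as members of this pathway, with earlier results of these data known, out of 15344 genes in the deposited tables, and all 10 were found. They were measured by RNA-Seq in quadriceps muscle of 6-month-old C57BL/6 mice. There were 4 libraries labelled WT, from mice for which the methods describe no treatment. Another 4 were labelled KO, from Gaa knock-out mice injected with PBS, and the last 4 were labelled AAV, from Gaa knock-out mice given 2e12 vg/kg of AAV2/8-LSPhGAApA by tail vein. Per the methods, the injected mice were males treated at 2 months of age, and the vector carries human GAA under a liver-specific promoter, so that muscle is meant to receive the enzyme from blood. Each library comes from the bulk RNA of a part of the muscle, in which fewer cells of a type and less RNA per cell cannot be told apart.

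In the integrated stress response, kinases that sense endoplasmic reticulum (ER) stress, amino acid shortage, viral RNA or mitochondrial and heme defects phosphorylate the translation initiation factor eIF2. General translation then slows, while the transcription factor ATF4 is translated more, so that Atf4 mRNA need not change when the pathway is active. ATF4 and its partners raise genes for amino acid supply and one-carbon metabolism, feedback regulators such as Trib3, and secreted signals such as Gdf15, a hormone that is released by muscle with mitochondrial disease. The comparisons below ask how these mRNAs differ with loss of Gaa, the lysosomal enzyme that degrades glycogen and is deficient in Pompe disease, and with vector treatment.

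Gaa itself went against the labels. Its normalized counts (reads divided by 1 size factor per library) were 343, 14640, 324 and 460 in the libraries labelled WT 1 to 4. They were 12151, 13075, 11936 and 12895 in those labelled KO and 947, 587, 499.6 and 9854 in those labelled AAV. The gene was thus high in all 4 libraries labelled KO, in WT 2 and in AAV 4, and low in the other 6. All groups are therefore named as labelled, and each direction below is between labels. These are counts of the mouse gene (ENSMUSG00000025579, chr11:119267887-119285454), and which part of it the knock-out removes is not given in the sources used here.

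Between 22122233 and 47379737 reads per library were counted, with the fewest in AAV 1 and the most in WT 3, and mitochondrial genes took 3.11% to 10.03% of them. Muscle markers (Acta1, Ckm, Myh4, Myh1, Tnnt3, Mylpf, Des) had a summed normalized count of 3693339 to 6025174 per library, and all 7 were detected. Within them Myh1 (-1.36) and Des (-1.03) were called lower and Myh4 (0.73) higher in KO against WT. Some libraries stood apart in markers of other cell types, as the plot of summed marker counts shows. The sum of 7 macrophage markers was 1342 in WT 3 against 3807 to 4424 in the other 3 libraries labelled WT. It was 4069 in AAV 4 against 783 to 1703 in the other 3 labelled AAV, and 761 to 1345 in those labelled KO. The sum of 5 adipocyte markers was 2731 in KO 3 against 54.6 to 671 in the other 11 libraries. The sum of 5 endothelial markers was 4604 in WT 3 against 1534 to 2554 in the other libraries labelled WT, 3656 to 4874 in those labelled KO and 2969 to 5230 in those labelled AAV. In KO against WT all 5 had positive log2 fold changes, and Pecam1 (0.91) and Cdh5 (1.03) were called higher. Of the 7 macrophage markers 5 were called lower in KO against WT, Cd163 was called higher (0.79) and Csf1r was not called (-0.49). The part of these cell types in the results below was not tested. Red blood cell markers were lowest in KO 3 (188) and KO 2 (583). In AAV against KO the markers called, all higher, were Hba-a1 (2.16), Hba-a2 (1.99), Pax7 (0.68), Myh1 (1.09) and Des (0.72). Summed counts of fibroblast markers (8148 to 19572) and Schwann cell markers (1154 to 4003) overlapped among the 3 groups. Satellite cell markers were 118 to 141 in libraries labelled KO, 152 to 225 in those labelled AAV and 125 to 248.7 in those labelled WT.

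**Figure D1:**
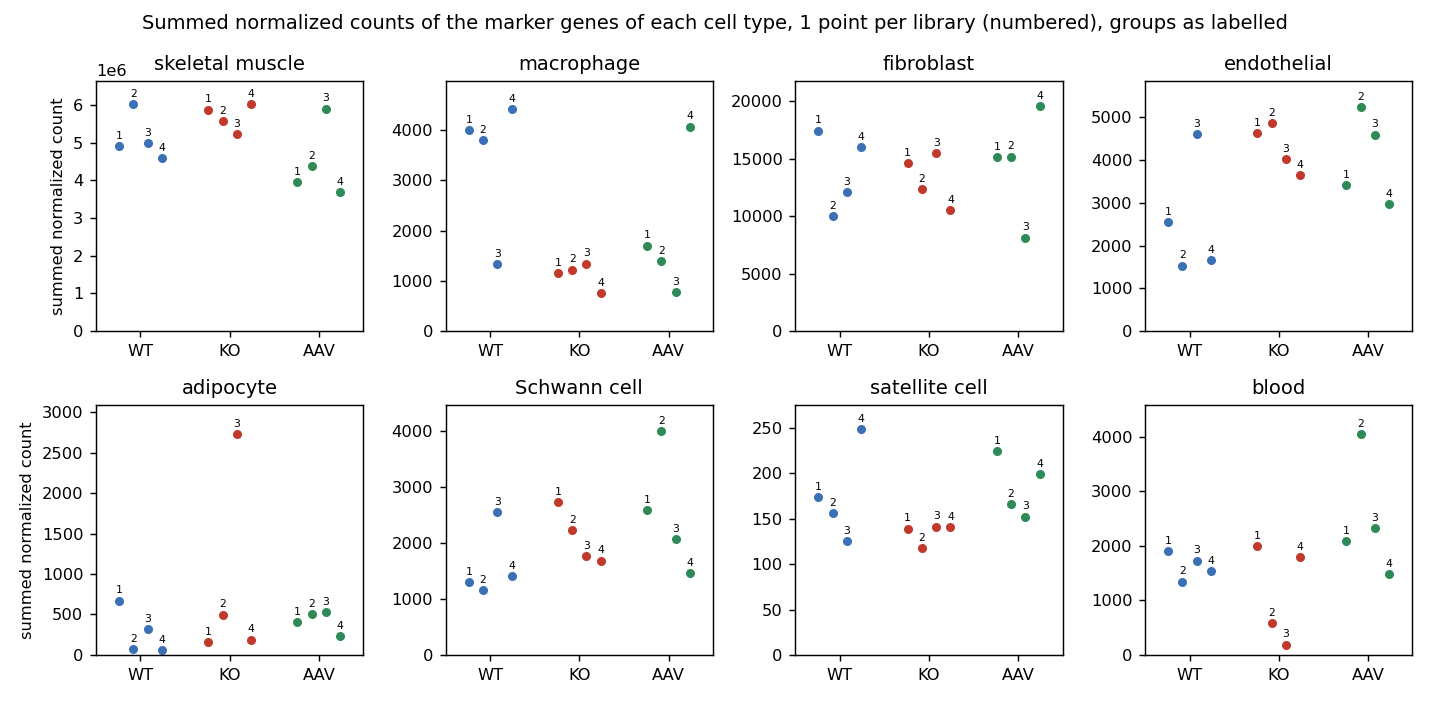
Summed normalized count (y axis) of the marker genes of 8 cell types in each library, by labelled group (x axis), 1 numbered point per library. Macrophage markers are low in WT 3 (1342) and high in AAV 4 (4069), and adipocyte markers are high in KO 3 (2731).

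Levels per kilobase of exon (normalized count divided by the summed exon length in GENCODE M21) separated the 10 genes into tiers. Atf4, the central transcription factor of the pathway, had a median of 2816 per kb over the 12 libraries and a range of 2397 to 3512. Atf5, a related factor whose translation is likewise controlled by upstream reading frames of its mRNA, had a median of 1428 (884 to 1989). Ddit3, which encodes the transcription factor CHOP, had a median of 270.1 (153 to 371). These 3 regulators did not overlap with each other or with any of the other 7 genes. Among their targets the order of medians per kb was Mthfd2 (43.4), Sesn2 (33.5), Asns (30.8), Psat1 (13.3), Trib3 (10.6), Phgdh (4.14) and Gdf15 (2.59), and each gene overlapped with the next in its range over libraries. Reads behind single values were 4870 to 10203 for Atf4 but 3 to 24 for Phgdh and 0 to 29 for Gdf15.

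**Figure D2:**
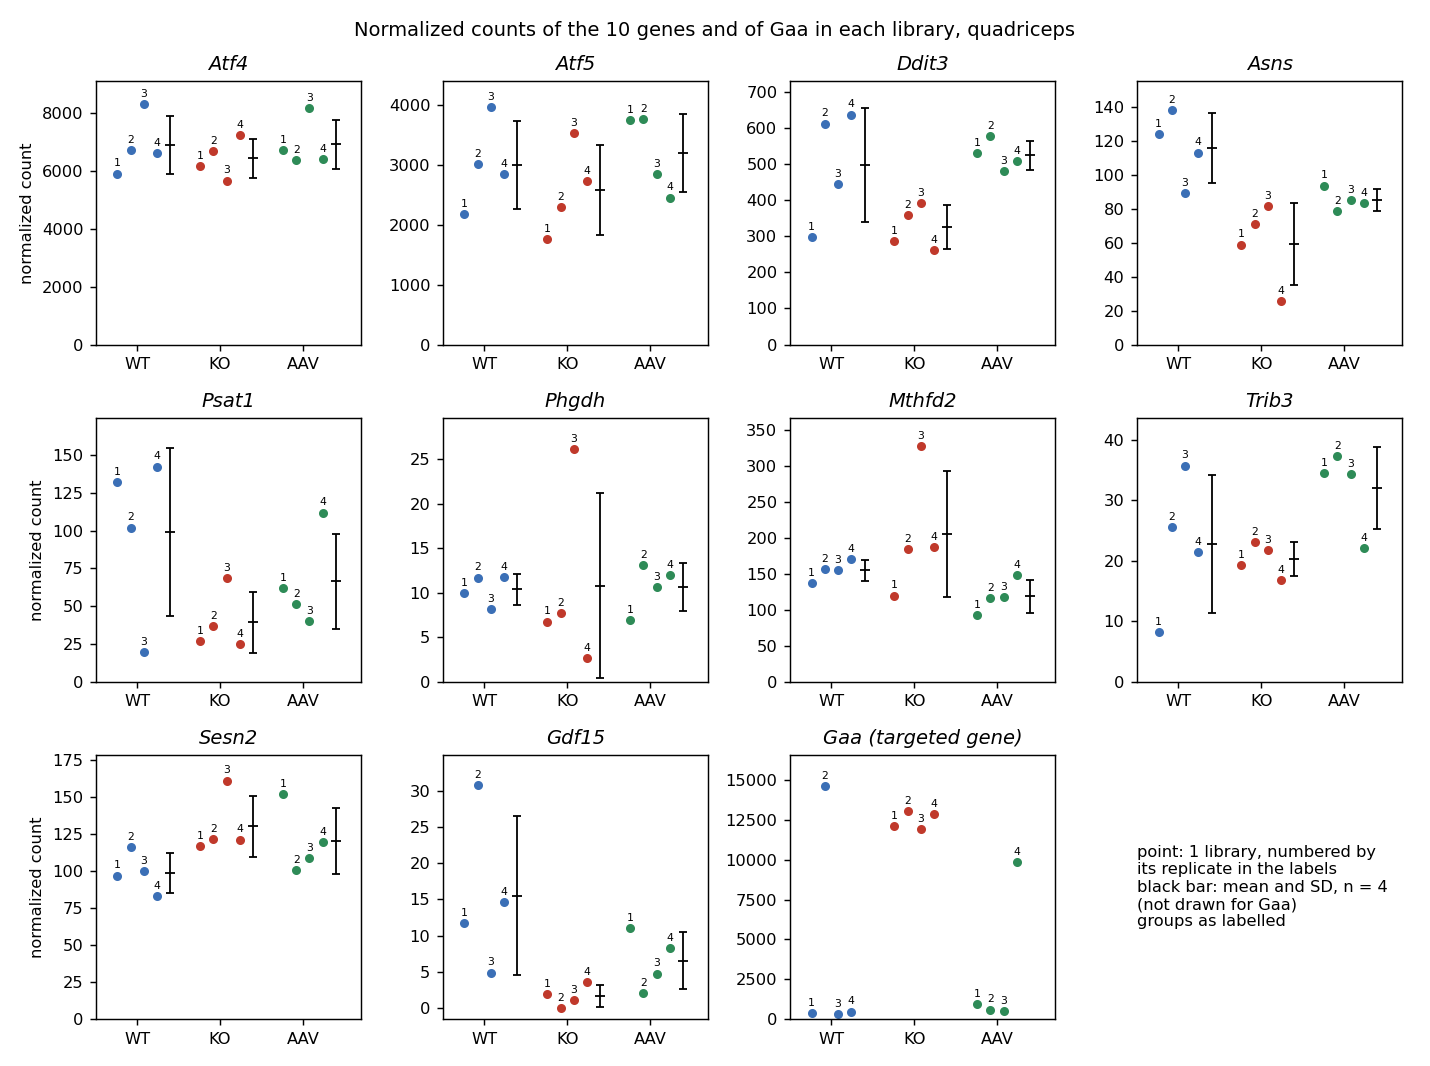
Normalized count (y axis) of each of the 10 genes and of Gaa in the 4 libraries of each labelled group (x axis), with mean and SD (n = 4) except for Gaa. Asns and Gdf15 in the libraries labelled KO lie below all those labelled WT, and Ddit3 in all 4 libraries labelled AAV lies above those labelled KO.

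Counted over all 10 genes, few passed the test in any comparison. Groups were compared by limma on log2(normalized count + 1). Every gene that reached 10 normalized counts in 1 or more of the 8 libraries was tested, and those with a Benjamini-Hochberg adjusted p below 0.05 are termed called. All 10 genes passed this filter in each comparison, but Gdf15 passed against KO only through the other group, where it is higher. From WT to KO, 2 of 10 genes were called, both lower, where 27.6% of all 14859 genes tested were called. Between AAV and KO 1 of 10 was called, where 26.3% of 14894 genes were. When the log2 fold change also had to be 1 or more in size, 2 of 10 (13.9% of all genes) and 0 of 10 (8.98%) were called. Between AAV and WT 0 of 10 were called by limma, DESeq2 or edgeR, and 0 had an unadjusted p under 0.05 by limma, where 1.29% of 14939 genes were called. Their median log2 fold change was -0.27 in KO against WT (all genes 0.02), 0.48 in AAV against KO (all genes 0.04) and 0.01 in AAV against WT (all genes -0.03). The first 2 comparisons share the 4 libraries labelled KO, so a shift of those libraries enters both with opposite sign.

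**Figure D3:**
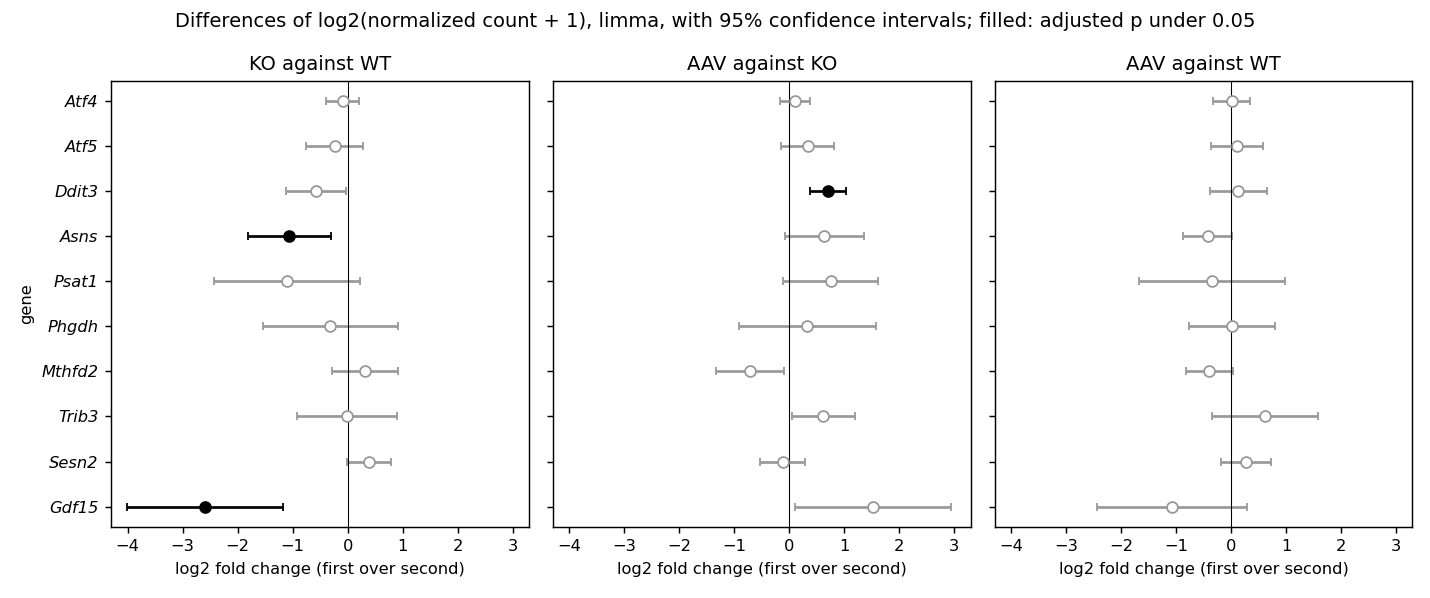
Log2 fold change (x axis, first group over second, limma) with its 95% confidence interval for the 10 genes (y axis) in the 3 comparisons, filled where the adjusted p was under 0.05. Asns and Gdf15 are filled in KO against WT, Ddit3 in AAV against KO, and none in AAV against WT.

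Sequences before the start site are shown for the 3 genes that were called, because ATF4 acts through a short composite site with C/EBP factors. They come from RefSeq promoter windows on GRCm38.p6, which hold all 10 genes in 13 windows. Capitals mark a match, on either strand, to the composite site TGATGNAA (N is any base) or to the CCAAT box, the binding site of NF-Y.
Asns (chr6:7693225-7693459, - strand, bases -250 to -16 from the RefSeq start): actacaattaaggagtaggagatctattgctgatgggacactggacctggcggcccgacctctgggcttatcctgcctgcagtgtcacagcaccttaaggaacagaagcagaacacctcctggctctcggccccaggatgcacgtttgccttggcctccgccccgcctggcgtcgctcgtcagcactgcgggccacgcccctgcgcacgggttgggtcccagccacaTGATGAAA
Ddit3 (chr10:127290543-127290792, + strand, bases -250 to -1): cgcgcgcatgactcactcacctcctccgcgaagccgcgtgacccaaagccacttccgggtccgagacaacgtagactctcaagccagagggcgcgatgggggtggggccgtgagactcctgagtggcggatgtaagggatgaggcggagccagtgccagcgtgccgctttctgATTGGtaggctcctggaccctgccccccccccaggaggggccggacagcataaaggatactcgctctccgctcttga
Gdf15 (chr8:70632457-70632706, - strand, bases -250 to -1 of the upstream one of its 2 RefSeq starts): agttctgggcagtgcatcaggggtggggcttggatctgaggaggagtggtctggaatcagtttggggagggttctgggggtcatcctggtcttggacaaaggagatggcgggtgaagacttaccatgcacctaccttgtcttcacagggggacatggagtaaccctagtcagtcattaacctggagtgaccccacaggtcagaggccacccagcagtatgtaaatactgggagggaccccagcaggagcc
The Asns window held the composite site at bases -23 to -16, as TGATGAAA on the strand of the gene. GENCODE M21 places the start of Asns further upstream, at base 7693254, so that this match lies within its first exon there. Among the other 9 genes only Trib3 held a match, TTACATCA on its opposite strand, at bases 15 to 22 after the start. TGATGNAA was present in 3.97% of all 32851 windows of 300 bases (250 before to 50 after the start). A CCAAT box, found in 37.4% of all windows, was present in windows of 8 of the 10 genes, among them Ddit3 at bases -77 to -73. The cAMP response element TGACGTCA (1.79% of windows) had no exact match in any of the 13 windows. Nor had the ER stress element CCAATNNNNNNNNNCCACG (0.119% of windows), which begins with the CCAAT letters. Near matches were not counted. Read on the opposite strand, the CCAAT box of Ddit3 is followed, at the spacing of that element, by GCACG where the element has CCACG.

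Of the transcription factors, Atf4 (ENSMUSG00000042406, chr15:80255184-80257541) differed little between groups. Its normalized counts were 5894, 6714, 8281 and 6610 in WT 1 to 4, 6161, 6671, 5653 and 7216 in KO 1 to 4, and 6712, 6368, 8139 and 6383 in AAV 1 to 4. The 3 groups overlapped throughout. The log2 fold change was -0.09 ± 0.14 (SE) in KO against WT (95% interval -0.40 to 0.21, adjusted p = 0.629, limma) and 0.10 ± 0.12 in AAV against KO (-0.17 to 0.38, adjusted p = 0.556, limma). The second was 0.02 to 0.16 with 1 library left out and 0.08 to 0.27 in the other settings, and it was called in none of them.

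Atf5 (ENSMUSG00000038539, chr7:44812256-44816658) varied more within groups than between them. Its normalized counts were 2176, 3015, 3963 and 2847 in WT 1 to 4, 1761, 2296, 3536 and 2724 in KO 1 to 4, and 3743, 3760, 2845 and 2455 in AAV 1 to 4. Again all groups overlapped, with log2 fold changes of -0.23 ± 0.23 in KO against WT (adjusted p = 0.472, limma) and 0.33 ± 0.22 in AAV against KO (adjusted p = 0.267, limma). Leaving out single libraries moved the first between -0.40 (without KO 3) and -0.06 (without KO 1), with -0.37 without WT 1 and -0.09 without WT 3, and the second between 0.17 (without KO 1) and 0.50 (without KO 3). The gene overlaps Il4i1 and Nup62 on the opposite strand, and as the strandedness of the libraries is not given in the sources used here, reads of these genes cannot be told apart in the shared parts. Nup62 was not analysed here. Il4i1 had a mean of 131 ± 44.2 normalized counts (SD, n = 4) with the label WT, 74.3 ± 16.9 with KO and 94.4 ± 27.6 with AAV, far below Atf5.

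Ddit3 (ENSMUSG00000025408, chr10:127290774-127296288), whose product CHOP promotes cell death under prolonged stress, was higher in the libraries labelled AAV than in those labelled KO. Its normalized counts were 531, 576, 481 and 508 in AAV 1 to 4 and 287, 357, 391.6 and 262 in KO 1 to 4. Every library labelled AAV lay above all those labelled KO, as was the case in one direction or the other for 30.6% of all genes tested. The log2 fold change was 0.71 ± 0.15 (SE), or 1.63-fold, with an adjusted p of 0.0108 (limma, 4 against 4 libraries). This call held in each of the 8 fits that left out 1 library (adjusted p 0.00896 to 0.0366) and in the other 8 settings tried (0.000398 to 0.0446).
In WT 1 to 4 Ddit3 had 298, 611, 445 and 636 normalized counts, so that WT 1 was among the values of the libraries labelled KO and the other 3 were above them. KO against WT gave -0.57 ± 0.25 (adjusted p = 0.107, limma), and without WT 1 it gave -0.80 with an adjusted p of 0.0281. Ddit3 overlaps Mars, the methionyl-tRNA synthetase, and the noncoding Gm4189 on the opposite strand. Mars moved the other way, with a mean of 1994 ± 65.2 in libraries labelled KO, 1411 ± 300.4 in those labelled WT and 1437 ± 343 in those labelled AAV (SD, n = 4), and whether reads of the shared part enter the Ddit3 result was not tested. Gm4189 had means of 7.77 to 14.0 in the 3 groups.

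Asns (ENSMUSG00000029752, chr6:7675169-7693254), which makes asparagine from aspartate and glutamine, was lower in the libraries labelled KO. Its normalized counts were 124, 138, 89.3 and 113 in WT 1 to 4 and 58.9, 71.0, 81.6 and 25.6 in KO 1 to 4. All 4 libraries labelled KO were below all 4 labelled WT. The groups did not overlap for 3 of the 10 genes (Asns and Gdf15 lower, Sesn2 higher) and for 28.3% of all genes tested. The log2 fold change was -1.06 ± 0.34 (SE), or 2.08-fold lower, with an adjusted p of 0.0416 (limma). This value lay close to the threshold. It passed in DESeq2 (0.0166) but not in edgeR (0.0505), with equal total reads (0.0517), with the replicate number as a block (0.0566), or without any one of WT 1, WT 2, WT 4, KO 1, KO 2 or KO 4 (0.0583 to 0.106). Leaving out KO 4, the lowest library, reduced the log2 fold change to -0.71. The libraries labelled AAV had 93.7, 78.5, 85.0 and 83.5, with a mean between the other groups, and differed by 0.63 ± 0.32 from those labelled KO (adjusted p = 0.165, limma; 0.28 without KO 4) and by -0.43 ± 0.20 from those labelled WT (adjusted p = 0.286, limma).

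Psat1 and Phgdh, which make serine from a glycolytic intermediate, did not pass the test. Psat1 (ENSMUSG00000024640, chr19:15904678-15947337) had normalized counts of 132, 102, 19.5 and 142 in WT 1 to 4, 27.1, 36.8, 68.5 and 24.8 in KO 1 to 4, and 62.0, 51.3, 40.2 and 112 in AAV 1 to 4. WT 3 was the lowest of all 12 libraries, while the other 3 labelled WT were above all 4 labelled KO. With WT 3 the log2 fold change in KO against WT was -1.10 ± 0.59 (adjusted p = 0.183, limma), and without WT 3 it was -1.76 with an adjusted p of 0.00191. DESeq2 on all 8 libraries gave -1.34 with an adjusted p of 0.0445. Macrophage markers were also low in WT 3 and high in AAV 4, the library labelled AAV with the most Psat1, and their part in the Psat1 values was not tested. Psat1 differed by 0.75 ± 0.39 in AAV against KO (adjusted p = 0.166, limma), and by 0.47 without AAV 4. A near-identical locus, Gm12611 (91.0% identity), is not among the genes analysed here.
Phgdh (ENSMUSG00000053398, chr3:98313170-98339990) was near the limit of detection, with 9.95, 11.7, 8.12 and 11.7 normalized counts in WT 1 to 4, 6.76, 7.70, 26.1 and 2.65 in KO 1 to 4, and 6.89, 13.1, 10.6 and 11.9 in AAV 1 to 4. KO 3, the library with the most adipocyte marker counts, was the highest of the 12 and KO 4 the lowest. The log2 fold changes were -0.32 ± 0.55 in KO against WT and 0.33 ± 0.56 in AAV against KO (adjusted p = 0.686 and 0.678, limma), and both signs depended on the test and on KO 4. Phgdh has 15 near-identical loci in GENCODE M21, with 90.6% to 98.7% identity over at least 1000 bases, of which 0 are in the tables. Since only reads with a single location were counted, its level is uncertain and can be too low.

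Mthfd2 (ENSMUSG00000005667, chr6:83305691-83325908), the mitochondrial enzyme of folate one-carbon metabolism, was not called in any comparison. Its normalized counts were 137, 156, 155 and 171 in WT 1 to 4, 120, 185, 327 and 187 in KO 1 to 4, and 92.3, 116, 118 and 148 in AAV 1 to 4. KO 3 was the highest, and 3 of the 4 libraries labelled KO were above all those of the other groups. KO against WT gave a log2 fold change of 0.31 ± 0.27 (adjusted p = 0.390, limma), which was 0.06 without KO 3 and 0.54 without KO 1, and AAV against KO gave -0.71 ± 0.28 (adjusted p = 0.0849, limma). The second passed in DESeq2 (adjusted p = 0.0332) and in limma without KO 1 (0.0427), but not in edgeR or without any other single library. Without KO 3, AAV against KO was -0.46 for Mthfd2.

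Trib3 (ENSMUSG00000032715, chr2:152337422-152344032) encodes a pseudokinase that restrains ATF4 and CHOP. It had 8.14, 25.5, 35.7 and 21.5 normalized counts in WT 1 to 4, 19.3, 23.1, 21.8 and 16.8 in KO 1 to 4, and 34.5, 37.3, 34.2 and 22.0 in AAV 1 to 4. The libraries labelled KO lay inside the range of those labelled WT, and 3 of 4 labelled AAV lay above those labelled KO. KO against WT was -0.0028 ± 0.41 on the log2 scale (95% interval -0.91 to 0.91), which leaves room for a change of nearly 2-fold in either direction. AAV against KO was 0.62 ± 0.26 (adjusted p = 0.0978, limma), and it passed without AAV 4 (0.78, adjusted p = 0.0438).
Sesn2 (ENSMUSG00000028893, chr4:132492032-132510501), a sestrin that binds leucine and restrains mTORC1, had 96.8, 116, 99.8 and 82.9 normalized counts in WT 1 to 4. It had 117, 121, 161 and 121 in KO 1 to 4, and 152, 101, 109 and 119 in AAV 1 to 4. The groups labelled KO and WT did not overlap, yet KO 1 and WT 2 were only about 1 normalized count apart and the log2 fold change of 0.39 ± 0.18 did not pass (adjusted p = 0.126, limma). AAV against KO was -0.12 ± 0.18 (adjusted p = 0.640, limma). This value was 0.04 with equal total reads, -0.01 without KO 3 and -0.24 without AAV 1.

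Gdf15 (ENSMUSG00000038508, chr8:70629393-70632456) differed most in KO against WT, at very low counts. Its normalized counts were 11.8, 30.8, 4.87 and 14.6 in WT 1 to 4, from 13, 29, 6 and 15 reads. In KO 1 to 4 they were 1.93, 0, 1.09 and 3.54, from 2, 0, 1 and 4 reads, and in AAV 1 to 4 they were 11.03, 2.01, 4.72 and 8.26. All libraries labelled KO were below all those labelled WT, and the 0 reads of KO 2 allow up to 2.57 normalized counts (3 reads). The log2 fold change was -2.60 ± 0.63 (SE) with an adjusted p of 0.0160 (limma). The gene passed the filter through 3 libraries labelled WT alone, and with no filter its adjusted p was 0.0150. The 1 added to each count makes the fold smaller than with 0.1 added (-3.73). On the summed reads, 63 in libraries labelled WT against 7 in those labelled KO, the ratio was 8.90, with an exact 95% interval of 4.08 to 23.0 that covers counting error only. The call held in each of the 8 fits without 1 library (adjusted p 0.00245 to 0.0474) and in the 7 other settings in which the gene was tested (0.00212 to 0.0371), while with a mean of at least 10 it was not tested. WT 3, with the fewest Gdf15 reads of its group, also had the fewest macrophage marker counts, and the summed macrophage markers were lower in the libraries labelled KO than in WT 1, 2 and 4, although Cd163 alone was higher. Their part in the Gdf15 result was not tested. The difference was larger without WT 3 (-3.01). It was smaller without WT 2 (-2.20, adjusted p = 0.0474, limma) and without KO 2 (-2.20). AAV against KO was 1.53 ± 0.64 (adjusted p = 0.1004, limma), with AAV 2 inside the range of the libraries labelled KO.

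In AAV against WT all 10 genes overlapped between the groups, and 11.7% of all genes tested did not. Some differences were -1.07 ± 0.61 for Gdf15, 0.62 ± 0.43 for Trib3, -0.43 ± 0.20 for Asns and -0.40 ± 0.19 for Mthfd2 on the log2 scale (adjusted p = 0.378, 0.469, 0.286 and 0.306, limma). Without WT 1, Trib3 was 0.21, and Gdf15 was -0.67 without WT 2 and -0.69 without AAV 2. The intervals do not exclude sizeable changes, since that of Gdf15 ran from -2.44 to 0.30. On data simulated from these libraries, 200 genes were changed 2-fold. The same test recovered 10% of them in AAV against WT, 34% in KO against WT and 51.5% in AAV against KO. Genes with as few reads as Gdf15 and Phgdh were not among those changed. The real KO against WT and AAV against KO tests called far more genes than 200, so these shares do not give their power.

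The genes around these 10 were counted in 7 lists by role. Of 23 listed genes of the ER unfolded protein response, a pathway that runs beside the integrated stress response, 11 passed the test in KO against WT and each of these had a negative fold change, where 15.3% of all genes were called lower. Manf, a secreted ER stress protein, fell from 1292 ± 188 to 405 ± 64.2 normalized counts (SD, n = 4), a log2 fold change of -1.67 ± 0.16 (adjusted p = 0.000259, limma). Sdf2l1, a cofactor of ER chaperones, fell from 177 ± 9.17 to 65.8 ± 26.5 normalized counts, while on the log2 scale Creld2 fell by 0.98 ± 0.16 and the ER chaperone Hsp90b1 fell by 0.70 ± 0.12 (adjusted p = 0.00532, 0.00344 and 0.00358, limma). The median of the list was -0.37, and between 11 and 13 of its genes were called when single libraries were left out. Of the same 23 genes 4 were higher and 1, Dnajc10 (-0.48, named after its values were seen), was lower in AAV against KO, where 12.8% of all genes were called higher and 13.4% lower, with Manf at 961 ± 264 in libraries labelled AAV (1.22 ± 0.20, adjusted p = 0.00495, limma), Creld2 at 0.70, Hsp90b1 at 0.67 and the transcription factor Xbp1 at 0.50 on the log2 scale. This count of 5 ranged from 3, without AAV 1, KO 1, KO 2 or KO 4, to 8, without AAV 3. In AAV against WT 1 of 23 was called, against 1.29% of all genes. This was Sdf2l1, which stayed below the libraries labelled WT (-1.03 ± 0.18, adjusted p = 0.0393, limma), but 0 were called without any 1 library other than WT 3.

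Of 20 genes that control eIF2, 4 were higher and 0 lower in KO against WT, where 12.3% of all genes were called higher, and 16 did not pass. In AAV against KO 0 were higher and 5 lower, where 13.4% of all genes were called lower. Dnajc3, an inhibitor of eIF2 kinases, was at 1732 ± 122 in libraries labelled KO, 1093 ± 215 in those labelled WT and 1044 ± 59.4 in those labelled AAV. Eif2ak1, the heme-regulated eIF2 kinase, rose by 0.51 ± 0.12 in KO against WT (adjusted p = 0.0131, limma) and fell by 0.60 ± 0.10 in AAV against KO (adjusted p = 0.00531, limma). Gcn1l1, the activator of the amino acid sensing kinase, rose by 0.42 and fell by 0.54, and Eif2b2, a subunit of the eIF2 exchange factor, rose by 0.39 and fell by 0.67 in the same comparisons. DESeq2 called 6 of the 20 higher and 1 lower in KO against WT. The limma count there was 2 without WT 1, WT 4 or any 1 library labelled KO and 8 without WT 3. That in AAV against KO was 3 without KO 2 or KO 4, 7 without AAV 3, and 3 of the 20 with equal total reads.

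Of 21 other ATF4 targets, 4 were higher and 4 lower in KO against WT, where 12.3% of all genes were called higher and 15.3% lower. Gpt2, a mitochondrial alanine transaminase, had 14823 ± 2461 normalized counts in libraries labelled KO and 4525 ± 2384 in those labelled WT (1.85 ± 0.33 on the log2 scale, adjusted p = 0.00517, limma). Cebpb fell by 2.48 ± 0.73, Atf3 by 1.61 ± 0.51 and Eif4ebp1, a repressor of cap-dependent translation, by 1.49 ± 0.32 (adjusted p = 0.0315, 0.0401 and 0.00924, limma). Cebpb varied strongly among the libraries labelled WT, with an SD of 2961 around a mean of 2198. Higher in AAV against KO were 2 of them, Cebpb (1.31) and Nupr1 (1.02), and 3 were lower, among them Gpt2 (-1.55) and Vldlr (-1.21), where 12.8% of all genes were called higher and 13.4% lower. The counts moved from 8 to 14 without WT 3 and to 5 without WT 4 or any 1 library labelled KO. The 5 calls of AAV against KO became 10 without AAV 3, 3 without AAV 1, KO 1 or KO 2 and 2 without KO 4.

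The cytosolic aminoacyl-tRNA synthetases, which charge tRNAs and include several ATF4 targets, had 5 of 20 genes higher and 0 lower in KO against WT, against 12.3% of all genes called higher, and DESeq2 called 6 higher and 1 lower. The same list had 0 higher and 6 lower in AAV against KO, against 13.4% of all genes called lower. Iars was at 2290 ± 81.2 in libraries labelled KO and 1343 ± 491 in those labelled WT (0.84 ± 0.22, adjusted p = 0.0200, limma), and Nars, Yars and Mars differed by 0.61, 0.65 and 0.52 in the same direction. From KO to AAV, Iars fell by 0.84, Nars by 0.66, Dars by 0.60 and Mars by 0.50. With equal total reads, where the median of all genes in AAV against KO was 0.20 rather than 0.04, the split in AAV against KO was 1 higher and 3 lower. That scaling also turned the medians of the synthetases (-0.14 to 0.03), of the other ATF4 targets (-0.13 to 0.03) and of the mitochondrial list below (-0.12 to 0.04) above 0, though each stayed below the median of all genes. In KO against WT the count rose from 5 to 10 without WT 3 and was 3 without WT 2, WT 4, KO 1 or KO 4. The 6 of AAV against KO became 8 without AAV 3 and 2 without AAV 1, KO 1, KO 2 or KO 4. They became 3 without AAV 4 or KO 3, and 4 without AAV 2.

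The 3 remaining lists are short, and their counts stand against 27.6% of all genes called in KO against WT, 26.3% in AAV against KO and 1.29% in AAV against WT. Of 12 serine and folate one-carbon enzymes, 2 were higher in KO against WT, Aldh1l1 (0.82 ± 0.27, adjusted p = 0.0491, limma) and Amt (1.12), 1 was lower in AAV against KO, Aldh1l2 (-0.60), and 1 was higher in AAV against WT, Amt (1.55), which was named after its values were seen. With equal total reads the split in AAV against KO was 1 higher and 0 lower, and edgeR gave 1 higher and 1 lower in KO against WT and 0 calls in AAV against WT. With 1 library left out, the first count was 6 without WT 3, 0 without KO 3 and 1 otherwise, the second was 2 without AAV 3, 1 without AAV 2 or KO 2 and 0 otherwise, and the third was 0. Of 10 genes of the mitochondrial unfolded protein response, the protease gene Yme1l1 was higher in KO against WT (0.67 ± 0.22) and Htra2 (-0.61), Hspe1 (-0.47) and Spg7 (-0.45) were lower, and this count of 4 lay between 0, without KO 1 or KO 3, and 5, without WT 3. From KO to AAV, Htra2 was higher (0.60), and Yme1l1 (-0.80) and Clpx (-0.56) were lower. Among 4 relatives of Sesn2 and Trib3, Trib1 (-0.92), Sesn3 (-0.75) and Sesn1 (-0.44) were lower in KO against WT, the opposite sign to Sesn2, and Trib1 (0.99) and Trib2 (0.62) were higher in AAV against KO. These counts of 3 and 2 became 1 in KO against WT without KO 2, KO 4, WT 1 or WT 4, and 1 in AAV against KO without AAV 2, AAV 4, KO 1, KO 3 or KO 4.

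**Figure D4:**
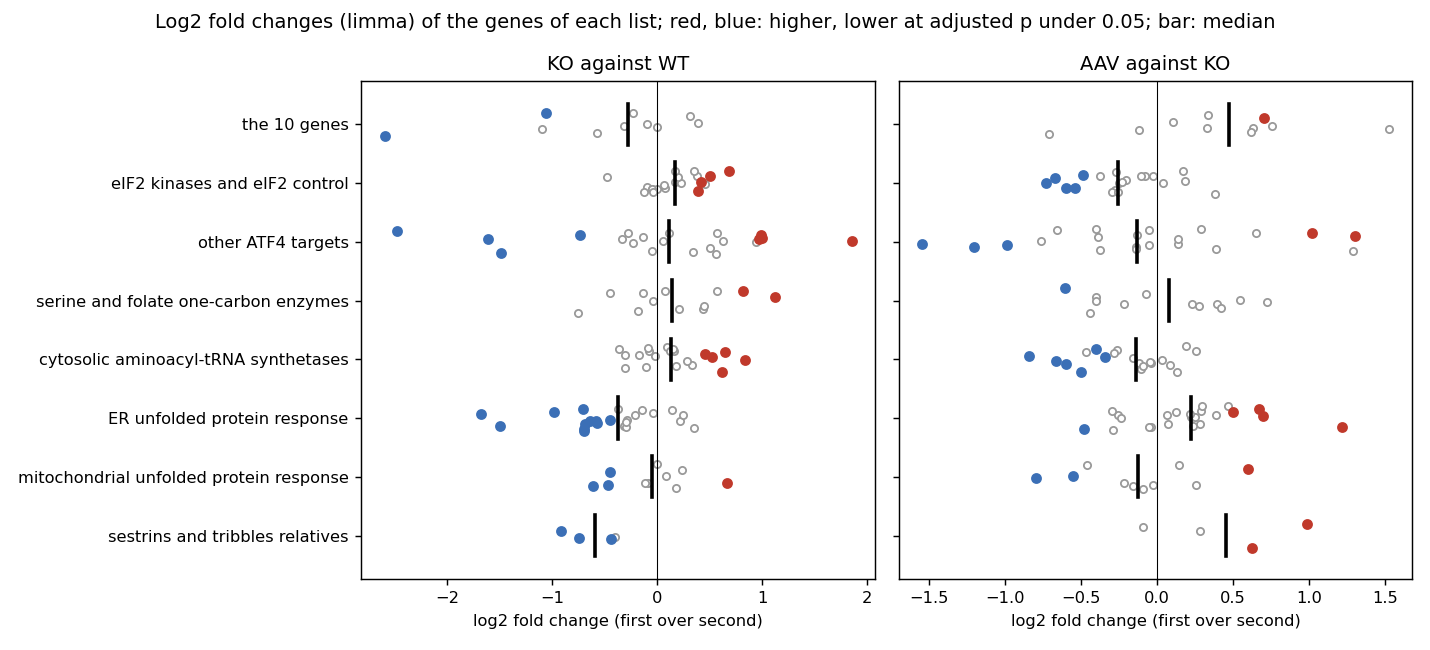
Log2 fold change (x axis, limma) of each gene in the set of 10 and in the 7 lists (y axis, 1 point per gene, spread vertically at random), red where called higher, blue where called lower, with the median of each list as a bar. In KO against WT the ER list has 11 blue and 0 red points, while the synthetases have 5 red and 0 blue.

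Likeness over the 12 libraries was ranked by Pearson r of log2(normalized count + 1) against 11071 genes with a mean of at least 50, as a description. Libraries share group, depth and tissue makeup, so high values are frequent. The genes most like Ddit3 were Mrps9 (r = 0.94), 9430073C21Rik (0.91) and Timm44 (0.90), and those most like Atf4 were Gm13091 (0.91), Rpap3 (0.82) and Gmeb1 (0.81). Asns was most like AC154507.1 (0.89), Mppe1 (0.89) and Myh1 (0.86), a myosin of fast fibers that was itself called lower in KO against WT. Psat1 was most like Cpxm1 (0.96), H2-Aa (0.94) and Larp6 (0.94), of which H2-Aa encodes a class II antigen of immune cells, and Gdf15 was most like Pfn1 (0.96), Scx (0.95) and Nol3 (0.95). Phgdh was most like Sfxn1 (0.84), a mitochondrial serine carrier, Cidea (0.81) and Agpat2 (0.80), of which the last pair act in fat cells. Sesn2 was most like Eif2ak4 (0.88), the kinase GCN2, with Samhd1 (0.87) and Vars2 (0.86). Atf5 was most like I830012O16Rik (0.88), Cyb5 (0.86) and Kcnn2 (0.86), Mthfd2 like Pgap2 (0.85), Pygb (0.79) and Slc25a15 (0.79), and Trib3 like Pmvk (0.93), P4htm (0.91) and Atp5sl (0.91).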

How the data were processed

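Quadriceps RNA from 12 mice, 4 per labelled group, was sequenced. Per the methods and the submitters' processing notes, the authors trimmed reads with Trim Galore 0.4.1, kept those of at least 20 nt, mapped them with STAR to GRCm38, discarded reads with several locations, assigned the rest to genes with HTSeq 0.6.1 and retained genes that reached 10 reads in some library. They divided each library's counts by a DESeq2 1.16.1 size factor, and these normalized signal values were deposited for 15344 genes in 2 tables. Both tables hold the 4 KO libraries, with a largest difference of 0, so that all groups share a scale. The deposited tables also hold the authors' log2 fold changes with standard errors, a Wald score, and p-values, none of which were used, and 0 columns of samples were left out.

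Every value was a whole multiple of its library's step (100% of values within 0.01 of a whole read), so reads were recovered. As planned for normalized values, the main test was limma (trend) on log2(value + 1), in the 8 libraries of each comparison, and DESeq2 and edgeR on recovered reads were alternatives. The test was tried on simulated data with 200 changed genes. P-values measure the spread between 4 mice per group. The set of 10 genes, the lists and the tests were chosen with earlier results of these data known. Genes of the lists were named when among the 4 with the largest change of those called with a mean of at least 50. Coordinates are those of GENCODE M21 (GRCm38), and near-identical loci were sought with BLAST 2.17.0 at 90% identity. Software was R 4.3.3, limma 3.58.1, edgeR 4.0.16, DESeq2 1.42.0, Python 3.11.15, pandas 2.3.3, scipy 1.17.1 and matplotlib 3.10.9.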

Additional observations from a re-analysis of the deposited data

Results flagged for a closer look

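Of 33 groups of 4 values tested with Dixon's ratio at its 95% critical value, which chance exceeds in about 1 of 20 groups, 3 held a library far from the others. Gaa was 14640 in WT 2, and the gap to the next library was 99.0% of the range of the group. It was 9854 in AAV 4, with a gap of 95.2% of the range. Sesn2 was 161 in KO 3, with a gap of 89.7% of the range. This was the only one among the 30 groups of the 10 genes, and KO 3 was also the library with the most adipocyte marker counts.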

How the results depend on the processing

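Of 488 refits of single genes of the set under other settings, 452 kept their direction and their side of the threshold, 9 fell short of it, 6 newly passed it and 21 changed sign, none of the last past the threshold. Called genes in KO against WT numbered 4097, from 2347 to 7160 with 1 library left out (highest without WT 3), and 2070 if a log2 fold change of 1 or more in size was also asked. In AAV against KO they numbered 3910, from 1961 to 5071 (lowest without KO 4), 2179 with the replicate block and 1338 with the fold threshold. In AAV against WT they numbered 193, from 18 to 437, and were 935 in DESeq2, 320 with equal total reads, 127 with no filter, 6 without WT 2 and AAV 4 together, 901 in a fit of all 12 libraries and 142 with the fold threshold. edgeR called 3979, 4027 and 163 genes and DESeq2 4864 and 4775 in the first 2 comparisons. Equal total reads changed the split of AAV against KO from 1911 higher and 1999 lower to 2394 and 1270.

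Of the 10 genes, the 2 called in KO against WT became 1 in edgeR, with equal total reads, with a mean of at least 10 and with the replicate block, and 1 to 3 with 1 library left out. The 1 called in AAV against KO became 2 in DESeq2, 0 with the fold threshold and 1 to 2 with 1 library left out. In AAV against WT 0 were called in every setting run.

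The fold threshold left few calls in the lists. In KO against WT it left 0 of 4 for eIF2 control, 5 of 8 for other ATF4 targets, 1 of 2 for one-carbon enzymes, 0 of 5 for synthetases, 2 of 11 for the ER list, 0 of 4 for the mitochondrial list and 0 of 3 for sestrins and tribbles. In AAV against KO it left 4 of 5 other ATF4 targets, 1 of 5 in the ER list and 0 in each of the other 5 lists. The replicate block reduced eIF2 control to 2, one-carbon enzymes to 1, the mitochondrial list to 1 and sestrins and tribbles to 1 in KO against WT, and eIF2 control to 3, synthetases to 2, the ER list to 3, one-carbon enzymes to 0 and sestrins and tribbles to 1 in AAV against KO. In AAV against WT it left 0 calls in all 7 lists, as equal total reads did for the ER list.

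Signs turned as follows, in log2 fold change. In KO against WT Phgdh was 0.0389 in DESeq2 and 0.0344 in edgeR and -0.85 to 0.12 with 1 library left out, Trib3 was 0.0073 with 0.1 added and -0.41 to 0.26 with 1 library left out, and Atf4 was -0.16 to 0.0007. In AAV against KO Phgdh was -0.0025 in DESeq2 and -0.11 to 0.86 with 1 library left out, and Sesn2 was 0.0441 with equal total reads. In AAV against WT, with 1 library left out, Atf4 was -0.0730 to 0.10, Atf5 -0.0412 to 0.25, Ddit3 -0.0916 to 0.27, Phgdh -0.0895 to 0.19 and Gaa -0.51 to 1.79, and Gaa was -0.39 in DESeq2 and -0.34 in edgeR. The cause was not tested.

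The replicate numbers of the labels stand for different mice. Deviations of same-numbered libraries correlated at -0.14 to 0.09 in KO against WT and -0.24 to 0.11 in AAV against KO. In AAV against WT the range was -0.48 to 0.65, with 0.65 in replicate 3 and 0.55 in replicate 4. Whether same-numbered libraries share more than a number was not tested. With the replicate block, Asns lost its call (adjusted p = 0.0566) and Gdf15 and Ddit3 kept theirs. Read numbers limit Gdf15 and Phgdh most.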
